A study of Mus musculus with 2 samples.

Results

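Heat-shock proteins and their J-domain partners were examined in sorted cells of mouse inguinal fat that carried either a Sox9 PreASKO or a Sox9 floxed genotype. The 69 members were all entries of the authors' table of 24862 genes whose symbols follow the Hspa, Hspb, Hspd1, Hspe1, Hsph1, Hsp90, Dnaja, Dnajb or Dnajc pattern. The rule goes by symbol alone, but the group was picked with earlier results of these data known. The cells were the GFP+ fraction of the inguinal stromal vascular cells, which the design text equates with Pref-1+ adipose precursors, from male mice aged 3 weeks. Per the labels' protocols the cells had been released with collagenase and stained for PDGFRa. Doxycycline had been given on postnatal day 1 to PreASKO and floxed mice alike. There was 1 library of the PreASKO genotype, titled KO, with 29172653 counts, and 1 of the floxed genotype, titled WT, with 37705236 counts, each from polyA RNA of pooled mice. The design text gives a pool of 6 without saying whether per genotype. The labels do not name the promoter that drives the recombinase or any further allele of the floxed mice. With 1 library per genotype no test between genotypes was possible and no p-value was computed. Ratios are PreASKO over floxed CPM (a gene's counts scaled to the library total), and the exact 95% interval in parentheses covers counting error only.

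Chaperones bind unfolded stretches of other proteins and keep them from aggregating while they fold. The Hsp70 proteins (Hspa genes) do this in cycles of ATP hydrolysis, J-domain proteins (Dnaj genes) bring them clients and start hydrolysis, and nucleotide exchange factors such as the Hsp110 protein Hsph1 reset them. Hsp90 proteins finish the folding of kinases and receptors, small heat-shock proteins (Hspb genes) hold clients without ATP, and Hspd1 and Hspe1 form the folding chamber of the mitochondrial matrix. Each compartment has its own set, and the cytosolic set is induced by the heat-shock factor HSF1, the set of the endoplasmic reticulum (ER) by the unfolded protein response. Some genes of the cytosolic set are also known to respond to the enzymatic dissociation and sorting of cells.

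Promoter sequences from RefSeq (GRCm38.p6) were read for 55 of the 69 members, each window running from 250 bases before to 50 after the gene's start. No window was available for Hsp90aa1, Hsp90ab1, Hspa8, Hspa9, Hspa13, Hspb2, Dnajc2, Dnajc5, Dnajc11, Dnajc12, Dnajc18, Dnajc19-ps, Dnajc22 and Dnajc30. Whether these carry either element is therefore not known here. Both strands were searched for the heat-shock element, the site of HSF1, here the units GAA, TTC and GAA with 2 bases of any kind between neighbours, and for the ER stress response element, here CCAAT and CCACG with 9 bases of any kind between them. The heat-shock element was found for 4 members, Hspe1, Hspd1, Hsph1 and Dnajb6, which is 7.27% of those matched, and for 0.662% of all 27025 genes with a window. The ER element was found for 3 members, Hspa5, Hsp90b1 and Dnajc3, which is 5.45%, and for 0.137% of all genes. A shorter match of 8 letters, GAA and TTC with 2 bases between them, which lies within the longer heat-shock element, was found for 12 members (21.8%) and 9.04% of all genes. The other pair within that element, TTC and GAA with 2 bases between them, was found for 6 members (10.9%) and 9.6% of all genes, nearly the same share. In Hspa1a the GAA and TTC match ran from -104 to -97, with the gene's start at 0. A match is a string of letters and was not measured as a bound site. Windows of 7 genes are printed to show these matches beside the expression values. They are the genes with either full element, apart from Hspd1, which shares its start region with Hspe1, and Hspa1a as the main inducible Hsp70 gene. Dnajb6, a cytosolic J protein that holds back aggregation, stood at 9.74 CPM in PreASKO and 8.59 CPM in floxed cells, a ratio of 1.13 (0.963 to 1.33) that spans equal levels. They are chr17:34972107-34972406 (minus strand) for Hspa1a, chr1:55087898-55088197 (plus) for Hspe1, chr5:149636266-149636565 (minus) for Hsph1, chr5:29735648-29735947 (plus) for Dnajb6, chr2:34771840-34772139 (plus) for Hspa5, chr10:86705395-86705694 (minus) for Hsp90b1 and chr14:118937682-118937981 (plus) for Dnajc3. Capitals mark the match, which is the 8-letter one in Hspa1a, the heat-shock element in the next 3 and the ER element in the last 3. Hspe1 holds 2 overlapping matches, shown as 1 run, and Hsp90b1 holds 2 separate ones.
Hspa1a: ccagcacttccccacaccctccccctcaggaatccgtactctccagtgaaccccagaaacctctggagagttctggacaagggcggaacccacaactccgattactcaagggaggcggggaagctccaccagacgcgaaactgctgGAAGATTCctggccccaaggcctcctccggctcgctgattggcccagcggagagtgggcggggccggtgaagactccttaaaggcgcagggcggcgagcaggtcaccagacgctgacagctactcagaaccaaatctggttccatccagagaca
Hspe1: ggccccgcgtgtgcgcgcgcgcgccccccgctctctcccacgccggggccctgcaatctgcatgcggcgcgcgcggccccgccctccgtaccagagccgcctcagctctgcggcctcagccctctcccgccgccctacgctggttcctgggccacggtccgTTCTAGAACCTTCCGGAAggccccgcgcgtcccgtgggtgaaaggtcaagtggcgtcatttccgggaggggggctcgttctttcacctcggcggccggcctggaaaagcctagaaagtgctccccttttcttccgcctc
Hsph1: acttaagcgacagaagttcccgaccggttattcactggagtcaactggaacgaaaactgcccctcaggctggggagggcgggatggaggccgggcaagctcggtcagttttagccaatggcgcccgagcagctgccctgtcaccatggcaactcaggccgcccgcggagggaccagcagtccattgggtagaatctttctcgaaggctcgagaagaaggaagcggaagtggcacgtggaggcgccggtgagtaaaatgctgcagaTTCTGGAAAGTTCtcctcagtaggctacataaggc
Dnajb6: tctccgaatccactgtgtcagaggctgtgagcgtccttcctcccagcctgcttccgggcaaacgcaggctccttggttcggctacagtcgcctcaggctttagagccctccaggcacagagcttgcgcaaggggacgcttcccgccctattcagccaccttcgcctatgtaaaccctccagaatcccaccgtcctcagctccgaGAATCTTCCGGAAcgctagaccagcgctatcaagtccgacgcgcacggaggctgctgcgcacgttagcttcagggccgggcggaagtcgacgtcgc
Hspa5: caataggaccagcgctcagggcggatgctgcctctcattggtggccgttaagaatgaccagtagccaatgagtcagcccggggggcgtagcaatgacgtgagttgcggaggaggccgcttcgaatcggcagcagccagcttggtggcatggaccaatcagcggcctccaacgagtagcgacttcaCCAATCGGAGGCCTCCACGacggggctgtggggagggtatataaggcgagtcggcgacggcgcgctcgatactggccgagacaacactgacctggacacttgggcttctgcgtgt
Hsp90b1: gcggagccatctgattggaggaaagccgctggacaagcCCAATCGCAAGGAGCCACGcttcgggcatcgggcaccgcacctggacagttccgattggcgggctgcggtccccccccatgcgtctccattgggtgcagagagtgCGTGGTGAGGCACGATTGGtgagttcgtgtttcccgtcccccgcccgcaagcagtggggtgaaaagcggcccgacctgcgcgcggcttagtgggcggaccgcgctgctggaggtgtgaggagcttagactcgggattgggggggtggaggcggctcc
Dnajc3: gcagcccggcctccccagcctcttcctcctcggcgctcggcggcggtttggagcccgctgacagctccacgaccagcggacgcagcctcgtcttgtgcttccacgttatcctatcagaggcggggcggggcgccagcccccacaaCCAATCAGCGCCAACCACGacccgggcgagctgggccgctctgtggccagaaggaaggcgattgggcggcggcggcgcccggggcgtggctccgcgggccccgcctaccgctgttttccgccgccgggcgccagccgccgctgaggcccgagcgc

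As a group the members differed little between the libraries. They held 1.15% of PreASKO counts and 1.09% of floxed counts, a ratio of 1.05 (1.05 to 1.06). The 68 members considered below had at least 10 counts in 1 library, and Dnajb3, with 4 PreASKO and 8 floxed counts, did not. In PreASKO 28 of them were higher and 40 lower. Among all 18911 genes that passed the same filter, 45.8% were higher and 54.2% lower. The median log2 ratio was -0.04 for the members and -0.07 for all genes. A ratio of 2 or more was seen in 1 member (1.47%) and in 9.08% of all genes. A ratio of 0.5 or less was seen in 4 members (5.88%) and in 18.2% of all genes. Of the 33 members with 1000 or more counts in 1 library, none passed 2-fold in either direction, beside 1.02% higher and 2.13% lower of the 5907 genes as deeply counted. Of these 33, 16 were higher and 17 lower, beside 53.1% and 46.9% of those genes, with intervals above 1 for 14 and below 1 for 11, beside 44.6% and 38.6%. At a limit of 1.5-fold, 1 member was higher and 13 were lower, 1.47% and 19.1% of the members, while 16.0% and 26.8% of all genes were past that limit. The intervals lay above 1 for 23 members and below 1 for 28, beside 33.2% and 39.9% of all genes. In the plot of ratio against level, the members past 2-fold sit at the low end, where genes of all kinds spread widely.

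**Figure D1:**
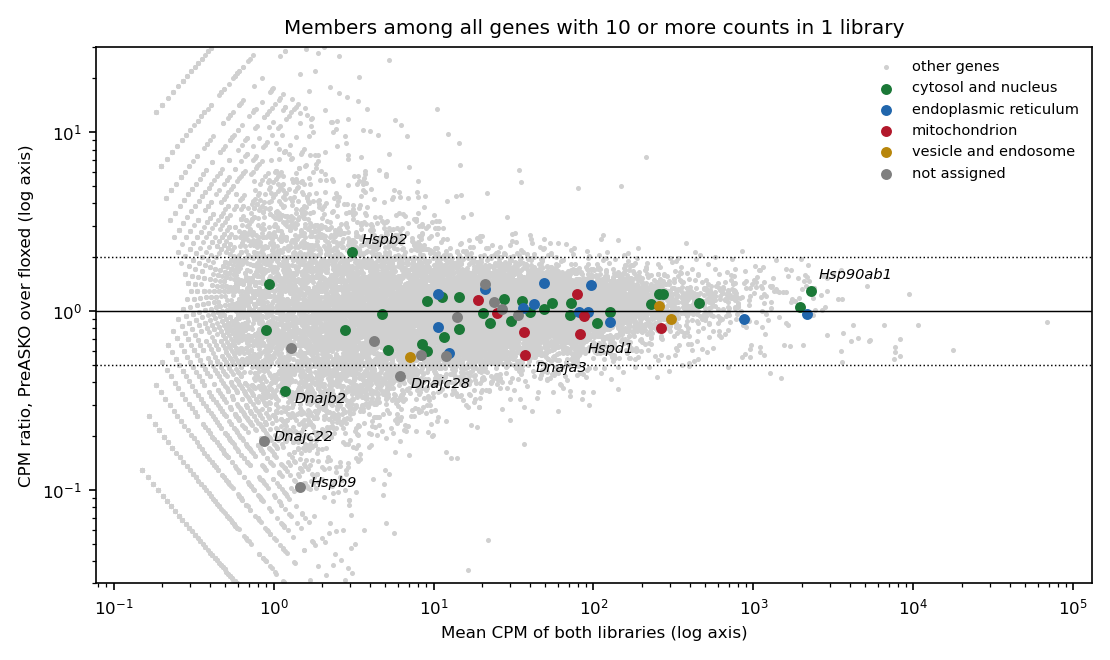
CPM ratio of PreASKO over floxed (vertical, log axis) against mean CPM of both libraries (horizontal, log axis), with members coloured by cell compartment and other genes in grey. Dotted lines mark 2-fold. Genes at 0 in 1 library and those beyond the axis are not drawn. Hsp90ab1, at 2567 CPM in PreASKO and 1993 CPM in floxed cells, sits at the right, and Hspb9, with a ratio of 0.103, is the lowest member.

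The libraries differed in cell type markers and in the targeted gene. Sox9 stood at 2.50 CPM in PreASKO and 6.05 CPM in floxed cells, from 73 and 228 counts, a ratio of 0.414 (0.313 to 0.541). Dlk1, which encodes Pref-1, and Pdgfra were present in both libraries, and all 12 precursor and stromal markers were lower in PreASKO, summing to 19650 and 34958 CPM in PreASKO and floxed cells. All 10 listed macrophage markers were higher, summing to 18409 CPM in PreASKO and 12214 CPM in floxed cells, so genes of this cell type were abundant in both sorted pools. Of 9 neutrophil markers 8 were higher, summing to 140 CPM in PreASKO and 62.8 CPM in floxed cells, as were all 6 listed erythroid markers, at 1667 and 801 CPM. All 9 mesothelial markers were lower, summing to 4.94 CPM in PreASKO and 176.5 CPM in floxed cells, with Upk1b at 0 counts in PreASKO. Lymphocyte markers summed to 109 CPM in PreASKO and 95.0 CPM in floxed cells, and adipocyte markers to 1411 and 1775 CPM. In pooled cells, fewer cells of a type and less RNA per cell cannot be told apart, and the part of cell makeup in the values given here was not tested.

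Levels per kilobase of merged exons were led by the same 7 members in the same order in both libraries. Hsp90ab1, the constitutive cytosolic Hsp90, was first at 856 CPM per kb in PreASKO and 665 CPM per kb in floxed cells. Hsp90b1, the Hsp90 of the ER, followed at 525 and 548 CPM per kb in PreASKO and floxed cells, then Hspa8, the constitutive cytosolic Hsp70, at 467 and 444 CPM per kb, and Hspa5, the ER Hsp70 also called BiP, at 197 and 217 CPM per kb. The fifth to seventh were the stress-inducible Hsp70 genes Hspa1a and Hspa1b and the Hsp110 gene Hspa4, between 87.6 and 102 CPM per kb in PreASKO and between 78.5 and 81.9 CPM per kb in floxed cells. Dnajc19-ps, by its symbol a pseudogene of Dnajc19, stood at 72.1 CPM per kb in PreASKO and 64.5 CPM per kb in floxed cells and shares 73.2% of its 31-base windows with other genes. Such sharing also reaches 77.2% in Hspa8, 68.0% in Hspa1b and 65.4% in Hspa1a. All 4 had raw counts and no repeat-distributed counts, and how the authors' counting treated shared reads is not known. Their places in the order may depend on it, which was not tested. Among the other J-domain genes, Dnajc5, the cysteine string protein of vesicles, was the highest in PreASKO, at 38.1 CPM per kb against 35.6 CPM per kb in floxed cells. Dnaja2, a cytosolic partner of Hspa8, was the highest in floxed cells, at 32.6 CPM per kb in PreASKO and 37.8 CPM per kb in floxed cells.

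**Figure D2:**
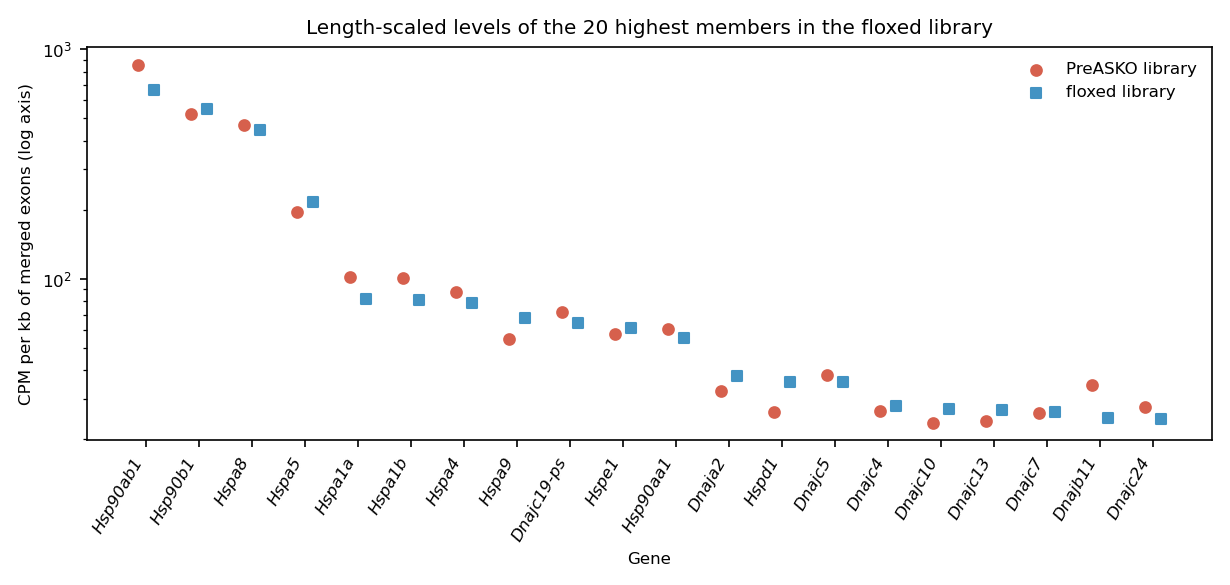
Level in CPM per kb of merged exons (log axis) of the 20 members highest in the floxed library, with PreASKO as red circles on the left and floxed as blue squares on the right of each pair. The 7 leading members keep their order, from Hsp90ab1 at 856 and 665 CPM per kb in PreASKO and floxed cells downward.

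In the cytosol and nucleus more of the Hsp genes were higher than lower in PreASKO, and fewer of the Dnaj genes were. The 32 listed members divided evenly, 16 to each side, and their median log2 ratio of 0.02 lay between -0.04 and 0.05 under other scalings. Its 16 Hsp genes divided into 10 higher and 6 lower. Of all genes past the count filter 45.8% were higher, and of those with 1000 or more counts 53.1%. The median of the 16 Hsp genes was 0.14, but -0.05 in repeat-distributed counts alone, which leave 6 of them. Their summed level was 6116 CPM in PreASKO and 5259 CPM in floxed cells, a ratio of 1.16 (1.16 to 1.17). Hsp90ab1 alone made up much of that sum, and without it the ratio was 1.09 (1.08 to 1.10). Its 16 Dnaj genes divided into 6 higher and 10 lower. Their median was -0.02, with sums of 511 CPM in PreASKO and 526 CPM in floxed cells.

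Hsp90ab1 stood at 2567 CPM in PreASKO and 1993 CPM in floxed cells, from 74876 and 75142 counts, a ratio of 1.29 (1.27 to 1.30). Its inducible relative Hsp90aa1 stood at 238 and 218 CPM in PreASKO and floxed cells, a smaller ratio of 1.09 (1.06 to 1.13). Hspa8 had 2008 CPM in PreASKO and 1908 CPM in floxed cells, a ratio of 1.05 (1.04 to 1.06). The inducible Hsp70 genes lie side by side on chromosome 17 with Hspa1l, an Hsp70 gene best known from testis. Hspa1a (34969359 to 34972156) stood at 303 CPM in PreASKO and 243 CPM in floxed cells, a ratio of 1.25 (1.21 to 1.28). Hspa1b (34956429 to 34959238) stood at 283 and 228 CPM in PreASKO and floxed cells, a ratio of 1.24 (1.20 to 1.28). Hspa1l (34972703 to 34979228), which starts 547 bases from Hspa1a on the other strand, stood at 12.3 and 10.3 CPM in PreASKO and floxed cells, a ratio of 1.20 (1.04 to 1.39). The 3 genes of the cluster were thus higher by similar factors, although Hspa1l stood at 4.99 CPM per kb and Hspa1a at 102 CPM per kb in PreASKO. Hspa1l shares 14.6% of its 31-base windows with Hspa1a, so its ratio may not be independent of that gene, which was not tested. Hspa1a and Hspa1b are near copies, sharing 63.8% of the 31-base windows of Hspa1a, so how the authors' counting divided their reads is uncertain, and their sum had a ratio of 1.24 (1.22 to 1.27).

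The Hsp110 exchange factors were higher too. Hspa4 stood at 484 CPM in PreASKO and 434 CPM in floxed cells, a ratio of 1.12 (1.09 to 1.14). Hsph1 had 76.1 CPM in PreASKO and 68.2 CPM in floxed cells, a ratio of 1.12 (1.05 to 1.18). Hspa4l, a heat-inducible relative of both, had 29.8 CPM in PreASKO and 25.4 CPM in floxed cells, a ratio of 1.17 (1.07 to 1.29). Of the cytosolic J-domain genes that HSF1 is known to induce, Dnaja1 stood at 57.6 and 52.0 CPM in PreASKO and floxed cells, a ratio of 1.11 (1.04 to 1.18). Its exons overlap by 608 bases on the opposite strand with Smu1, which had 8289 PreASKO and 8435 floxed counts and a ratio of 1.27. All counts of Dnaja1 were repeat-distributed. Dnajb1, the classic inducible partner of Hspa1a, stood at 40.1 CPM in PreASKO and 40.3 CPM in floxed cells, a ratio of 0.995 (0.921 to 1.07), within counting error of equal levels. Its raw counts alone, 102 in PreASKO and 192 in floxed cells, gave 0.707.

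Of the 12 heat-inducible members, 8 were higher and 4 lower in PreASKO. Of all genes past the count filter 45.8% were higher, and of those with 1000 or more counts 53.1%. The median log2 ratio was 0.14, beside 0.03 for all genes with 1000 or more counts. The 8 higher ones were Hspa1a, Hspa1b, Hsph1, Hsp90aa1, Dnaja1, Hspa4l, Hsp90ab1 and Hspa8. Hsp90ab1 and Hspa8 are called constitutive above, so the name of the list is loose for them. Leaving Hsp90ab1 out gave a median of 0.13, and leaving out both was not tested. No member of the list passed 1.5-fold. The 4 lower ones were Dnajb1, the mitochondrial pair Hspd1 and Hspe1, and the small heat-shock gene Hspb1, which stood at 21.0 CPM in PreASKO and 24.4 CPM in floxed cells, a ratio of 0.862 (0.777 to 0.956). Of the factors that drive the list, Hsf1 stood at 51.9 and 58.2 CPM in PreASKO and floxed cells, a ratio of 0.893 (0.835 to 0.953), and Hsf2 at 24.3 and 22.2 CPM, a ratio of 1.09 (0.987 to 1.21). Among 21 measured immediate-early genes, which dissociation is also known to induce, 12 were higher and 9 lower. That division lies near the 53.1% higher of genes with 1000 or more counts. Their median log2 ratio was 0.27, with sums of 5309 CPM in PreASKO and 5464 CPM in floxed cells. Btg2 and Ier3 of that list, picked for the largest log2 ratios, had ratios of 2.27 and 1.69. The most abundant genes of the list, named after their values were seen, were not higher. Dusp1, Fos and Jun had ratios of 0.8555, 0.871 and 0.956, and Egr1 one of 0.997 (0.983 to 1.01). Whether the handling of the 2 cell pools had a part in these values was not tested.

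**Figure D3:**
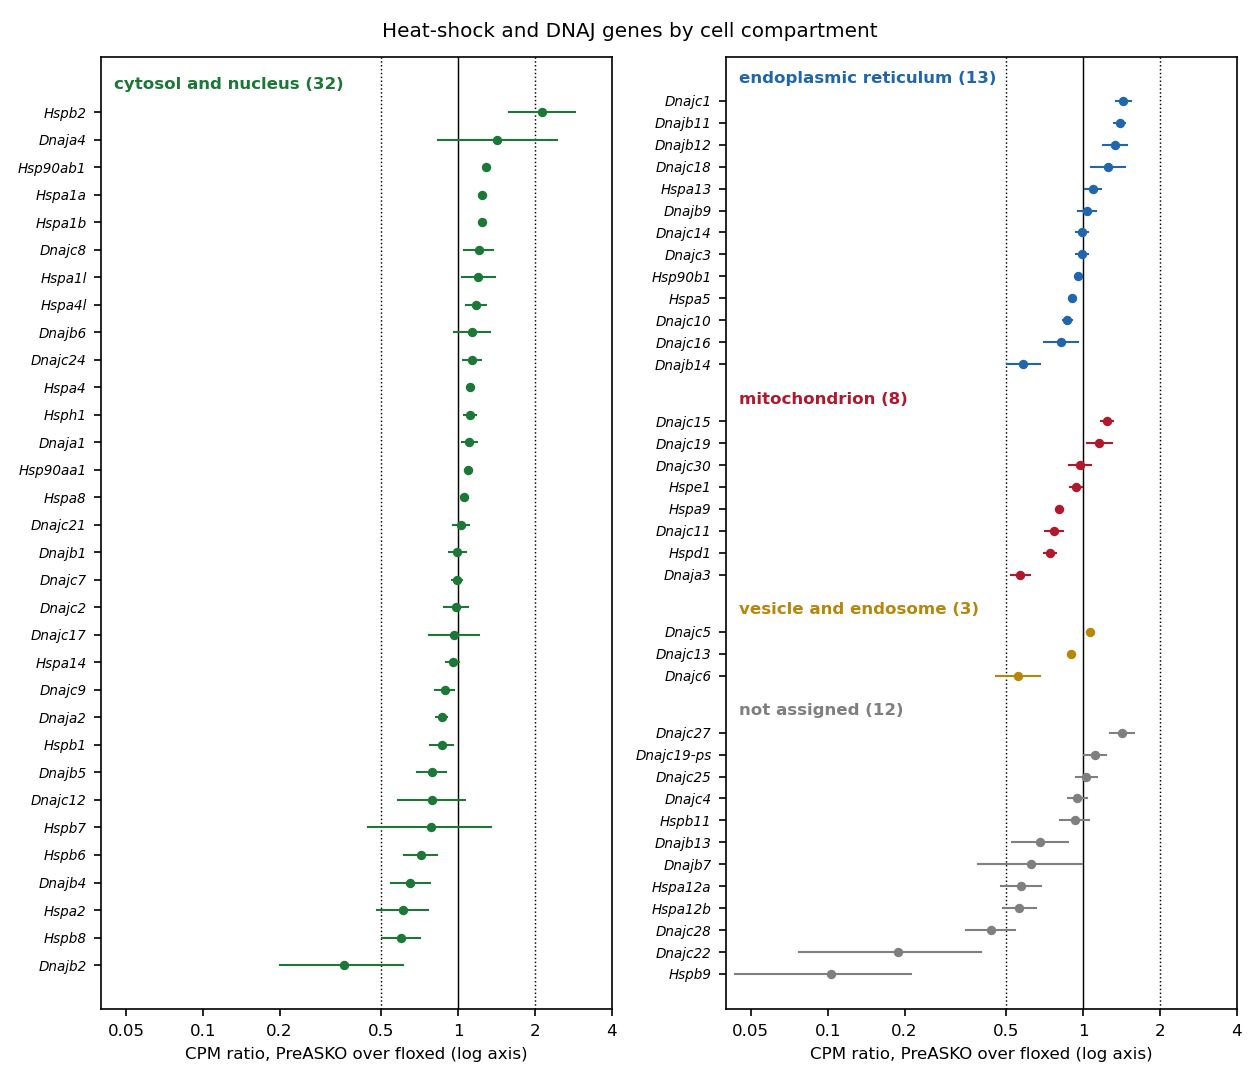
CPM ratio of PreASKO over floxed (log axis) for the 68 members with 10 or more counts in 1 library, grouped by compartment, with exact 95% intervals of counting error as bars. Dotted lines mark 2-fold. The abundant cytosolic Hsp genes lie just right of 1, and Hspa9, Dnajc11, Hspd1 and Dnaja3 of the mitochondrion lie left of it, from 0.808 down to 0.569.

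Of the 7 Hspb genes, which include Hspb11, a ciliary transport gene, 6 were lower in PreASKO, beside 54.2% of all genes past the filter. The interval lay below 1 for 4 of the 7, beside 39.9% of all genes. The family's median log2 ratio was -0.35. It was -0.15 in repeat-distributed counts alone and -0.205 with a pseudocount of 1 CPM. Hspb8, which works with the cochaperone Bag3 and is abundant in muscle, stood at 6.79 CPM in PreASKO and 11.3 CPM in floxed cells, a ratio of 0.599 (0.504 to 0.711). Hspb6, another small heat-shock gene of muscle, had 9.67 CPM in PreASKO and 13.6 CPM in floxed cells, a ratio of 0.713 (0.615 to 0.827). Hspb7, a cardiac and skeletal muscle gene, had 23 and 38 counts in PreASKO and floxed cells, with a ratio of 0.782 whose interval of 0.445 to 1.35 spans equal levels. Hspb9 (chromosome 11, 100713929 to 100714575), a small heat-shock gene known from testis, had 8 counts in PreASKO and 100 in floxed cells, 9.67-fold lower (4.72 to 23.0). Hspb2, the one family member that was higher, had 122 counts in PreASKO and 74 in floxed cells, a ratio of 2.13 (1.58 to 2.88). Its exons overlap those of Cryab, the gene of the small heat-shock protein alpha-B crystallin, by 252 bases on the opposite strand, and the labels do not say whether counting used strand. Cryab itself stood at 26.9 CPM in PreASKO and 29.1 CPM in floxed cells, a ratio of 0.923 (0.841 to 1.01). The ratio of Hspb2 also depended on the kind of count, at 3.99 in raw counts alone and 1.60 in repeat-distributed counts alone. Mural and smooth muscle markers were lower in 7 of 9, summing to 337 CPM in PreASKO and 531 CPM in floxed cells, with none at 0. Skeletal muscle markers were lower in 6 of 9, with a median log2 ratio of -0.41 and none at 0. Their sum was 43.5 CPM in PreASKO and 37.6 CPM in floxed cells, of which Acta1, one of the 3 higher markers, made up 25.8 and 15.6 CPM. Their part in the Hspb values was not tested.

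In the ER, J-domain genes were spread to both sides while the 2 most abundant chaperones were slightly lower in PreASKO. Its 13 members divided into 6 higher and 7 lower. The median log2 ratio was -0.01, and between -0.06 and 0.03 under other scalings, with sums of 3548 CPM in PreASKO and 3694 CPM in floxed cells, a ratio of 0.960 (0.953 to 0.968). Hsp90b1, which folds integrins and Toll-like receptors, stood at 2118 CPM in PreASKO and 2212 CPM in floxed cells, a ratio of 0.958 (0.948 to 0.968). Hspa5, the master Hsp70 of the ER, had 832 CPM in PreASKO and 919 CPM in floxed cells, a ratio of 0.905 (0.890 to 0.920). The 3 genes with the ER stress response element in their promoter window, these 2 and Dnajc3, lay between 0.905 and 0.992. Dnajc3, also known as an inhibitor of the kinase PERK, stood at 92.0 and 92.7 CPM in PreASKO and floxed cells.

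The largest ER ratios belonged to J-domain genes. Dnajc1, a membrane J protein, stood at 58.3 CPM in PreASKO and 40.5 CPM in floxed cells, a ratio of 1.44 (1.34 to 1.54). Raw counts alone gave 1.92 and repeat-distributed counts alone 1.26, and its exons overlap by 749 bases on the opposite strand with Mllt10, whose ratio was 1.23. Dnajb11, which hands nascent proteins to Hspa5 in the lumen, had 112 CPM in PreASKO and 80.1 CPM in floxed cells, a ratio of 1.39 (1.32 to 1.46). Dnajb12, a membrane J protein of ER quality control, had 24.06 CPM in PreASKO and 18.01 CPM in floxed cells, a ratio of 1.34 (1.20 to 1.49). Its near relative Dnajb14 was lower instead, at 9.26 CPM in PreASKO and 15.8 CPM in floxed cells, a ratio of 0.585 (0.504 to 0.676). Dnajc10, a J protein with disulfide reductase activity, stood at 119 and 136 CPM in PreASKO and floxed cells, a ratio of 0.869 (0.833 to 0.908). Dnajb9, a classic target of the unfolded protein response, stood at 36.9 and 35.5 CPM in PreASKO and floxed cells, a ratio of 1.04 (0.958 to 1.13), within counting error of equal levels.

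Other ER folding genes leaned higher than Hspa5 and Hsp90b1. Of 15 measured, 11 were higher and 4 lower, with a median log2 ratio of 0.24. Of all genes past the count filter 45.8% were higher, and of those with 1000 or more counts 53.1%. Sdf2l1, a lumenal partner of Dnajb11, stood at 119 CPM in PreASKO and 65.3 CPM in floxed cells, a ratio of 1.83 (1.74 to 1.93), and Fkbp14, a prolyl isomerase that acts on collagen, at 11.45 and 17.96 CPM, a ratio of 0.638 (0.558 to 0.728). Serpinh1, the collagen chaperone Hsp47, named here after its value was seen, had 268 CPM in PreASKO and 369 CPM in floxed cells, a ratio of 0.727 (0.707 to 0.747). Of 11 regulators of the unfolded protein response, 8 were higher, and the median was 0.25. Herpud1, an ER degradation factor, stood at 74.97 CPM in PreASKO and 31.38 CPM in floxed cells, a ratio of 2.39 (2.23 to 2.57), and Ddit3, which encodes CHOP, at 11.1 and 6.58 CPM, a ratio of 1.68 (1.42 to 1.99).

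Of 8 mitochondrial members, 6 were lower, beside 54.2% of all genes past the count filter and 46.9% of those with 1000 or more counts. The median log2 ratio of the 8 members was -0.20, with sums of 582 CPM in PreASKO and 679 CPM in floxed cells, a ratio of 0.857 (0.841 to 0.874). Hspa9, the mitochondrial Hsp70 that pulls precursors through the inner membrane, stood at 236 CPM in PreASKO and 292 CPM in floxed cells, a ratio of 0.808 (0.784 to 0.832). Dnaja3, its J-domain partner in the matrix, had 27.2 CPM in PreASKO and 47.8 CPM in floxed cells, a ratio of 0.569 (0.523 to 0.619). It was the one member of the 33 with 1000 or more counts past 1.5-fold, beside 8.87% of genes of that depth lower and 6.99% higher. Exons of Dnaja3 overlap by 160 bases on the same strand with Vasn, whose ratio was 0.363, and by 153 bases on the other strand with Coro7, whose ratio was 1.60. Dnajc11, a J protein tied to the complexes that shape mitochondrial cristae, had 32.1 CPM in PreASKO and 41.9 CPM in floxed cells, a ratio of 0.767 (0.707 to 0.833), but repeat-distributed counts alone gave 1.12. Dnajc15 and Dnajc19, related J proteins of the import motor, were the 2 higher ones. Dnajc15 stood at 87.5 CPM in PreASKO and 70.3 CPM in floxed cells, a ratio of 1.25 (1.18 to 1.32), and Dnajc19 at 20.5 and 17.7 CPM, a ratio of 1.16 (1.04 to 1.30).

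The chaperonin genes Hspd1 and Hspe1 share the promoter printed above. On chromosome 1 Hspd1 runs from 55077833 to 55088243 on the minus strand and Hspe1 from 55088148 to 55091317 on the plus strand, with 112 bases of exon overlap in GENCODE M21. Hspd1 stood at 69.8 CPM in PreASKO and 94.3 CPM in floxed cells, a ratio of 0.740 (0.701 to 0.782). Hspe1 stood at 84.6 CPM in PreASKO and 90.0 CPM in floxed cells, a ratio of 0.940 (0.892 to 0.990). Both were lower, and the 2 counting intervals did not overlap. All counts of Hspd1 were repeat-distributed and all of Hspe1 raw. Near copies elsewhere in the transcript annotation hold 55.8% of the 31-base windows of Hspd1 and 48.1% of those of Hspe1, so both values are uncertain. Besides the members, 10 other mitochondrial chaperones and proteases divided into 4 higher and 6 lower. Their median log2 ratio was -0.06, beside -0.07 for all genes past the count filter. The protease genes Yme1l1 and Lonp1 of that list had ratios of 0.485 (0.452 to 0.520) and 0.704 (0.659 to 0.752). All 13 mitochondrially encoded protein genes were lower as well, with a median of -0.54 and 11.04% of PreASKO counts against 14.41% of floxed counts. Whether mitochondrial content had a part in the chaperone values was not tested.

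**Figure D4:**
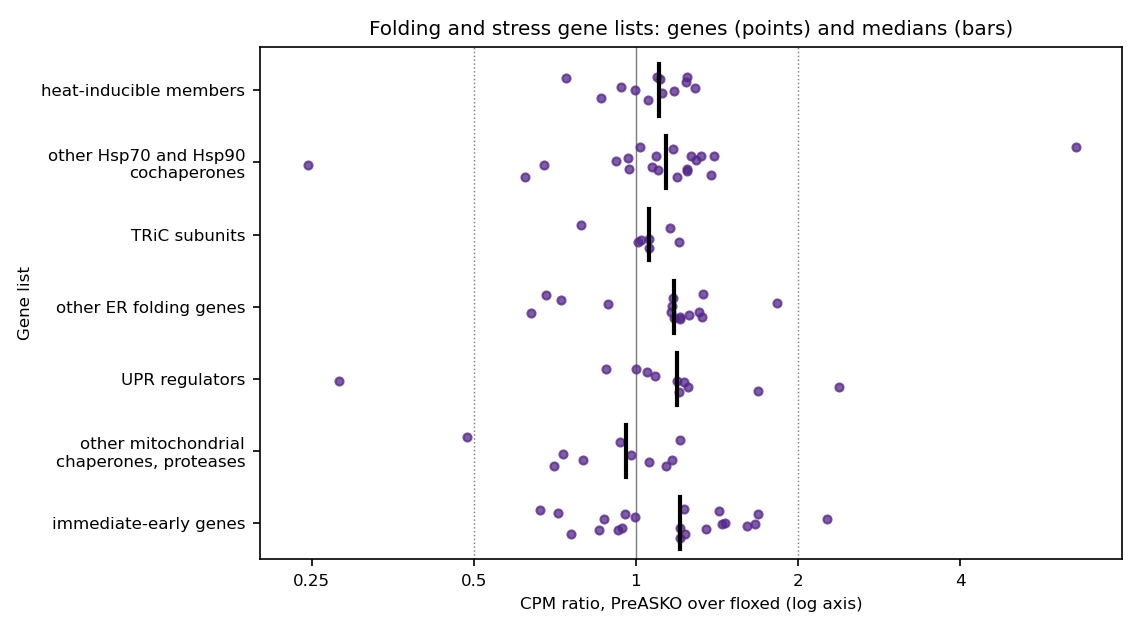
CPM ratios of PreASKO over floxed (log axis) for single genes (points) of the heat-inducible members and 6 related gene lists, with the median of each as a bar and dotted lines at 2-fold. The medians of other ER folding genes and of regulators of the unfolded protein response (UPR) lie right of 1, at log2 values of 0.24 and 0.25, and that of other mitochondrial chaperones and proteases lies left, at -0.06.

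Of 20 cochaperones outside the J-domain family, 14 were higher, beside 45.8% of all genes past the count filter and 53.1% of those with 1000 or more counts. The median log2 ratio of the 20 was 0.18, with sums of 1527 CPM in PreASKO and 1293 CPM in floxed cells. Fkbp5, an Hsp90 cochaperone that glucocorticoids are known to induce, stood at 25.4 CPM in PreASKO and 3.87 CPM in floxed cells, a ratio of 6.56 (5.49 to 7.89). Bag4, an Hsp70 exchange factor, had 78 counts in PreASKO and 162 in floxed cells, a ratio of 0.622 (0.469 to 0.820). The lowest point of that list in the plot by gene list is Bag2, another exchange factor, named after its value was seen, with 16 counts in PreASKO and 84 in floxed cells, a ratio of 0.246 (0.135 to 0.423). Of 7 measured subunits of TRiC, the cytosolic chaperonin that folds actin and tubulin, 6 were higher, with Cct7 at a ratio of 1.20 and Cct3 at 0.789.

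Vesicle J proteins included 2 abundant genes and 1 low one. Dnajc13, an endosomal trafficking factor, stood at 289 CPM in PreASKO and 320.1 CPM in floxed cells, a ratio of 0.902 (0.877 to 0.927), and Dnajc5 at 265 and 247 CPM, a ratio of 1.07 (1.04 to 1.10). Dnajc6, the clathrin uncoating factor auxilin, had 5.11 CPM in PreASKO and 9.18 CPM in floxed cells, a ratio of 0.557 (0.456 to 0.676).

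Among 13 members given no compartment here, 9 of the 12 past the count filter were lower, beside 54.2% of all genes past it. The median log2 ratio of the 12 was -0.62. That median was -0.15 in raw counts alone, -0.33 among members with 100 or more counts and -0.41 with a pseudocount of 1 CPM. The 3 most abundant by CPM, Dnajc4, Dnajc25 and Dnajc19-ps, had ratios of 0.951 (0.874 to 1.03), 1.03 (0.936 to 1.13) and 1.12 (1.01 to 1.24). Dnajc28 had 3.74 CPM in PreASKO and 8.57 CPM in floxed cells, 2.29-fold lower (1.84 to 2.88). Hspa12b, a distant Hsp70 relative known from endothelium, had 8.64 CPM in PreASKO and 15.3 CPM in floxed cells, a ratio of 0.564 (0.484 to 0.654). Its raw counts alone, 82 in PreASKO and 94 in floxed cells, gave 1.16. The 9 endothelial markers were 5 higher and 4 lower and summed to 892 CPM in PreASKO and 802 CPM in floxed cells, with none at 0. The remaining members past 2-fold, named after their values were seen, were Dnajc22, with 8 PreASKO and 55 floxed counts, and the cytosolic Dnajb2, with 18 and 65 counts, 5.32-fold (2.52 to 12.9) and 2.79-fold (1.64 to 5.01) lower. Dnajc27, a J-domain GTPase, had the highest ratio of the unassigned members, at 24.6 CPM in PreASKO and 17.3 CPM in floxed cells, a ratio of 1.42 (1.27 to 1.58). Hspa2, an Hsp70 gene of the cytosol best known from spermatogenesis, had 3.91 CPM in PreASKO and 6.42 CPM in floxed cells, a ratio of 0.609 (0.483 to 0.764).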

How the data were processed

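PolyA RNA of GFP+ stromal vascular cells was sequenced, 1 library per genotype. The authors deposited raw counts and repeat-distributed counts per gene, which are estimated counts, plus a fold ratio and its log2, per the file headers. Per the submitters' processing notes, mm10 was the genome build. Neither aligner nor counting program is given in the sources used here. Repeat-distributed counts made up 50.55% of PreASKO and 49.07% of floxed counts. These were taken to be reads compatible with more than 1 annotated transcript, including transcripts of the same gene, an inference from the column name. Windows shared with other genes did not always match the kind of count. Hspa8, with 77.2% of windows shared, had raw counts alone, and Hsph1, with none shared, had repeat-distributed counts alone. Raw counts alone were present for 22 of 23 members with a single RefSeq transcript, and for 3 of 45 with 2 or more.

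Both counts were summed, rounded and scaled to the library total. Ratios carry exact conditional (Clopper-Pearson) intervals, which without molecular identifiers cover counting error only. They take the estimated repeat-distributed counts as if counted and leave out any error of that estimate. Genes needed 10 counts in 1 library. The authors' deposited log2 fold lay within 0.01 of the value here for 56 of 69 members. Members and lists were chosen with earlier results of these data known. Compartments were assigned from textbook knowledge to 56 members. Merged exon lengths and overlaps came from GENCODE M21, gene coordinates from RefSeq GRCm38.p6. Sequence sharing was counted over 31-base windows of 1 transcript per member against transcripts of all other genes. Named members were, per compartment, the 3 most abundant and the 3 with the largest log2 ratio among those with 100 or more counts, all heat-inducible members, and those past 2-fold, plus 2 genes of each related list. Sox9 was named as the targeted gene. Dnaja2, Dnajb2, Dnajb3, Dnajb4, Dnajb6, Dnajb7, Dnajb9, Dnajb12, Dnajb13, Dnajc2, Dnajc3, Dnajc15, Dnajc19, Dnajc22, Dnajc27, Hspa1l, Hspb6, Hspb7, Hspb11, Serpinh1, Dlk1, Pdgfra, Upk1b, Acta1, Bag2, Dusp1, Fos, Jun, Egr1 and the overlapping or neighbouring genes fall outside that rule and were chosen after their values were seen. Python 3.11.15, numpy 2.4.6, scipy 1.17.1, pandas 2.3.3, matplotlib 3.10.9, and edgeR 4.0.16 under R 4.3.3 for alternative scaling factors were used, and the ratio calculation was checked on simulated data.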

Additional observations from a re-analysis of the deposited data

How the results depend on the processing

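No paired analysis was possible because each genotype has 1 library, and for the same reason no replicate could be left out. Depth limits members with few counts, such as Dnajb3, Hspb7 and Dnajb7. Scaling by TMM, by median of ratios, to totals without mitochondrially encoded and haemoglobin genes, or (a setting chosen after seeing the data) to totals without stromal and blood cell markers moved the median log2 ratio of all genes by between -0.0544 and 0.0368 and kept every count of members past a fold limit within 1.5 times. Counts of members past 2-fold were 1 higher and 4 lower. They were 2 and 1 in raw counts alone, beside 12.7% and 20.1% of all genes under that setting, and 0 and 2 with a pseudocount of 1 CPM, beside 3.10% and 5.94%. They were 0 higher in repeat-distributed counts alone, beside 6.71%, and 2 lower among genes with 100 or more counts, beside 8.0%. Past 1.5-fold, 1 was higher and 13 lower, against 3 and 7 in raw counts alone (21.6% and 28.7% of all genes), 2 higher in repeat-distributed counts alone (12.7%) and 2 higher in the authors' deposited fold (16.1%). Raw counts alone, which leave 49 members, gave a median log2 ratio of 0.0814 for the members and 0.33 for the Hspa family. The heat-inducible median lay between 0.09 and 0.18 and the mitochondrial one between -0.25 and -0.05 under the alternatives run. In repeat-distributed counts alone the cytosolic Hsp median was -0.05 and the Hspa median -0.28. Of 36 members followed one by one, 2 whose interval excludes equal levels reversed, Dnajc11 at 1.12 in repeat-distributed and Hspa12b at 1.16 in raw counts alone. Dnajb1 and Dnajc25, whose intervals span equal levels, also changed side, Dnajb1 up to 1.02 and Dnajc25 down to 0.985. In raw counts alone Dnajb1 stood at 0.707, below its interval. Besides the 2 reversals, 41 of the 263 ratios of the 36 members under alternatives lay outside the member's counting interval. Hspa8, for example, lay between 1.01 and 1.08, a wider range than its interval. The summed cytosolic ratio reversed to 0.981 in repeat-distributed counts alone, which hold no counts of Hsp90ab1, Hspa8 or Hspa1a. The cause of this reversal and of the other moves was not tested.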

Other observations

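Besides Hspd1 with Hspe1 and Hspa1a with Hspa1l, several members start within 1000 bases of a gene on the other strand. Dnajb11, with a ratio of 1.39, starts 176 bases from Tbccd1, a tubulin cofactor-related gene with a ratio of 1.26 (1.15 to 1.38). Hspb11, a subunit of the transport complex of cilia, had a ratio of 0.928 and lies 61 bases from Lrrc42, at 1.19 (1.06 to 1.33). Dnajc2, a ribosome-bound J protein, had a ratio of 0.982, and Psmc2, a proteasome ATPase gene 32 bases away, one of 1.18 (1.14 to 1.22). Dnajb4, a cytosolic J protein, had a ratio of 0.651, and Fubp1, 120 bases away, one of 0.988. Dnajb1 and Tecr, a fatty acid elongation gene 222 bases away, had ratios of 0.995 and 1.03. These pairs were named after their values were seen.

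Exons of 16 members overlap those of another listed gene, for 15 of them with a partner on the opposite strand. Dnajb13, known from the radial spokes of motile cilia, had 100 counts in PreASKO and 190 in floxed cells, a ratio of 0.680, and overlaps by 305 bases the uncoupling protein gene Ucp2, with 62568 PreASKO and 47767 floxed counts and a ratio of 1.69. Of the 69 members, 23 share over 5% of their 31-base windows with other genes. The 8 with over 40% include Hspa8 at 77.2%, Hsp90aa1 at 62.9% and Hspb1 at 56.7%, all of which have raw counts alone.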
